A study of Homo sapiens with 6 samples.

Results

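Metallothioneins and the genes around them that handle zinc were followed in CAL27 cells, an established human line of tongue squamous carcinoma. The 9 genes were taken by name: the metallothioneins MT1A, MT1E, MT1F, MT1G, MT1M, MT1X and MT2A, the transcription factor gene MTF1 and the zinc exporter gene SLC30A1. They are 9 of the 58243 genes listed in the deposited tables, and each matched 1 identifier in GENCODE release 29. In the study, 3 libraries came from cells given the PBS vehicle and 3 from cells given 30 mM metformin, a biguanide drug that lowers blood glucose. Both groups were cultured for 48 h in high-glucose medium with fetal bovine serum. Both groups are the same cell line, no other dose or time was included, and no zinc or other metal treatment is named in the labels.

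Metallothioneins are very small proteins, rich in cysteine, that bind zinc and copper and also trap cadmium and other toxic metals. Their genes are switched on when free zinc rises: the zinc finger protein MTF1 senses the metal, enters the nucleus and binds short metal response elements in front of the metallothionein genes and of SLC30A1, whose product pumps zinc out of the cell. In keratinocytes and squamous tumours MT2A and MT1 genes are known to be expressed, and glucocorticoids, oxidants and cytokines can also induce them.

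The metallothionein members lie in 1 cluster on chromosome 16, where the family spans 56565049 to 56684196 in GRCh38. MT2A (56608199 to 56609497) comes first of the 7 and MT1X (56682424 to 56684196) last, with MT1E (56625475 to 56627112), MT1M (56632233 to 56633986), MT1A (56638666 to 56640087), MT1F (56657694 to 56660698) and, on the opposite strand, MT1G (56666731 to 56668065) between them. MTF1 (37809567 to 37859620) and SLC30A1 (211571568 to 211578742) are both on chromosome 1. The genes are near copies of one another, so the coding sequences of the 5 metallothioneins listed above 0 are printed to show how few bases tell them apart. They are GENCODE 29 transcript sequences, 5′ to 3′, and capitals mark the bases that differ from MT2A.
MT2A: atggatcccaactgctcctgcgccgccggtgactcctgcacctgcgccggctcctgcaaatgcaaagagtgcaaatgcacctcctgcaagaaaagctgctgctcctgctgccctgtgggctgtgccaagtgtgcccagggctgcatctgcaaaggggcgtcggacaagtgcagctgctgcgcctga
MT1E: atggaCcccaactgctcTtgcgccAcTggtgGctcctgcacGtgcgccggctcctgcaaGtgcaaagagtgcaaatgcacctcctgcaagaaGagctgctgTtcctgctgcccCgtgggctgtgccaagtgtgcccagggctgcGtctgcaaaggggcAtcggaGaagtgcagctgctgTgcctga
MT1X: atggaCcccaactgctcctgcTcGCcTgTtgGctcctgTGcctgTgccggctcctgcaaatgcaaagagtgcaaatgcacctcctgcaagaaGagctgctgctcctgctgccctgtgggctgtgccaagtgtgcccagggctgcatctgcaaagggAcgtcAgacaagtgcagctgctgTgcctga
MT1M: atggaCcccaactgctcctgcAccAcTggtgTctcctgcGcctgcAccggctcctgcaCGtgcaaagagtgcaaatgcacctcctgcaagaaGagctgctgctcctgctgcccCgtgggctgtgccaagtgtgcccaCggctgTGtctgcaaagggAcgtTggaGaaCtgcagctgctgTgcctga
MT1F: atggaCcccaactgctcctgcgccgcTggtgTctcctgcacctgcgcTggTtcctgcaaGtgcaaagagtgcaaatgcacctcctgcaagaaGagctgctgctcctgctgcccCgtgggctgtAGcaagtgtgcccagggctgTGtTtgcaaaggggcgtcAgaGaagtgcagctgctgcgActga

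Each coding sequence is 186 bases long. MT1E and MT1X each differ from MT2A at 14 positions (92.5% identity), MT1F at 16 and MT1M at 19. MT1E and MT1X differ from each other at 17 positions. Among all 7 members the closest pair is MT1G and MT2A, with 95.2% identity, and the most distant is MT1F and MT1X, with 88.7%. The parts of the transcripts outside the coding sequence were not aligned on their own. For shared stretches the family was taken as the 7 members, 5 other metallothionein genes and 8 pseudogenes, and the rest of the genome was not searched. The longest stretch that any member transcript shares letter for letter with another of these genes is 96 bases, between MT1X and MT1G. For MT2A it is 65 bases and for MT1E 79 bases, the latter with the pseudogene MT1JP. No window of 150 bases, the read length that the series design names, is identical between a member's main transcript and any transcript of another family gene. For windows of 75 bases, 7.18% of those of MT1X, 6.63% of those of MT1G and 0.794% of those of MT1E recur in another family gene. For windows of 25 bases the share is 8.79% in MT2A and 36.9% in MT1G. Reads of the full 150 bases therefore carry at least 1 base that sets them apart from these other genes, whereas trimmed or short alignments need not. How the authors assigned fragments that match several genes is not given in the sources used here. On the same strand, 321 exon bases of MT1X also belong to AC026461.1, which was listed at 0 in every library.

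**Figure D1:**
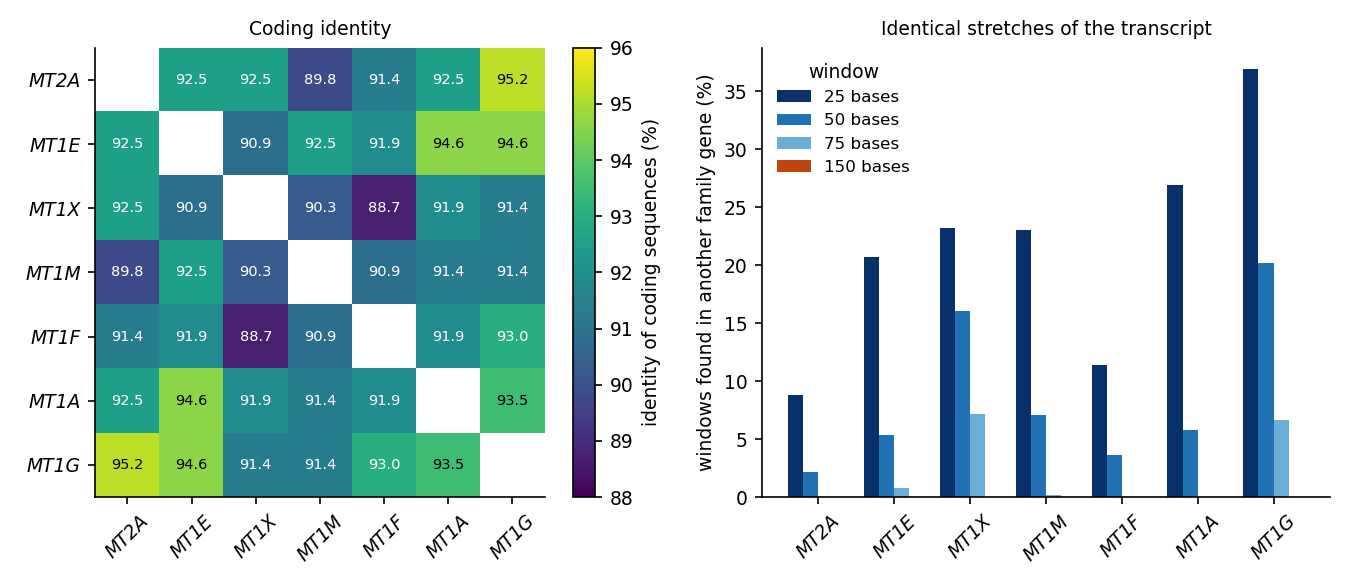
The left panel gives the percent identity of each pair of coding sequences among the 7 metallothionein members, from 88.7% to 95.2%. The right panel gives, for each member's main transcript, the percent of windows of 25, 50, 75 or 150 bases that occur letter for letter in another gene of the family, and at 150 bases the bars are at 0 for all 7.

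The promoter sequences of MT2A, MT1X and SLC30A1 are printed because these genes are known to respond to MTF1. The lines give the 250 bases before the RefSeq start (GRCh38.p14), 5′ to 3′ on the gene's strand, and capitals mark matches to TGCACNC or TGCGCNC, the core letters of the metal response element, on either strand. MT2A is chr16:56608334-56608583 on the plus strand, MT1X is chr16:56682220-56682469 on the plus strand, and SLC30A1 is chr1:211579162-211579411 on the minus strand.
MT2A: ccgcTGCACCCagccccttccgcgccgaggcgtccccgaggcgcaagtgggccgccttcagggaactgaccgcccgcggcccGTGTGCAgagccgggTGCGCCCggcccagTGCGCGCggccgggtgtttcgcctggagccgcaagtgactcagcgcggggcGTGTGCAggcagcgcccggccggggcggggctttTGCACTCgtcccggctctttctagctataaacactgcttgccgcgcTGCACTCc
MT1X: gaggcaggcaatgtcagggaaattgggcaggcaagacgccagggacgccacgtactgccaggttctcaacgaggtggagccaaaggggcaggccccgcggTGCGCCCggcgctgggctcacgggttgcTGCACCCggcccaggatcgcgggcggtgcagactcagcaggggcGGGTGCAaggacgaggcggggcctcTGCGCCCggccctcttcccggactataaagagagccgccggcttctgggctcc
SLC30A1: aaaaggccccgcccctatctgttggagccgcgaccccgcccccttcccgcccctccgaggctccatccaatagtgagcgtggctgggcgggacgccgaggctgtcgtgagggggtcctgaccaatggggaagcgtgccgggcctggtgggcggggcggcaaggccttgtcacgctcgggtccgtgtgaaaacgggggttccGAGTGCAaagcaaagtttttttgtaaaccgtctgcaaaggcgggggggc

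MT2A has 7 matches in this window, MT1X 4 and SLC30A1 1. The RefSeq starts differ from the GENCODE gene limits given above. The window of MT2A lies inside those limits, that of MT1X runs into them, and that of SLC30A1 lies wholly beyond them. The bases between the SLC30A1 window and its GENCODE limit were not searched. Of 35116 windows of the same length in the RefSeq promoter table, 24.8% hold at least 1 match, 0.37% at least 4 and 0.0313% at least 7. In MT1X the matches begin 150, 122, 78 and 53 bases before the start, and in MT2A the one nearest the start begins 8 bases before it. The window of MTF1 itself has 0 matches. MT2A also holds TGACTCA, a match to the AP-1 letters TGANTCA, beginning 104 bases before the start, which does not overlap a metal response match. MT1X, SLC30A1 and MTF1 have no such match, and 6.57% of all windows have one. The promoter table matched 4 of the 9 genes, and a match in letters is a description of the sequence only.

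Levels are given in FPKM, the deposited unit (fragments scaled by transcript length and by the mapped total), as mean ± SD over 3 libraries per group. Log2 changes subtract PBS from metformin on the log2(FPKM + 1) scale. They come from a limma fit over the 13437 genes that averaged 1 FPKM or more, with p-values adjusted by Benjamini-Hochberg over all of them and a threshold of 0.05. In this comparison 56.2% of tested genes passed, 31.0% higher and 25.2% lower, and in 64.4% the groups were fully separated. The split by direction depends on scaling: 4169 of 7549 passing genes were higher here, against 3745 of 7495 with median-of-ratios scaling and 3645 of 7456 with quantile normalization. Of the 9 genes, 7 reached the level filter, and 2 of those passed, MTF1 higher and MT1X lower. Spacing of the lowest values put the depth at 7810000 to 8820000 counted fragments per library, which is an estimate. Of the markers of squamous epithelium, all 8 were tested. Their summed level was 1282 to 1362 FPKM with PBS and 727 to 751 with metformin, and 2 were higher and 5 lower. The basal keratins fell: KRT14 from 246 ± 17.4 to 12.9 ± 0.275 and KRT5 from 355 ± 6.04 to 52.4 ± 4.19. KRT6A, KRT17 and TP63 were also lower. In contrast, mean EPCAM rose from 103 to 130 FPKM and CDH1 from 51.5 to 61.0. SFN, at 310 and 315, did not pass. The summed levels of markers of other cell types were low. They were 1.54 to 2.34 and 2.49 to 2.74 for 6 fibroblast genes, with DCN at 0. COL1A1, the 1 tested gene among them, was higher (mean 1.36 to 2.38 FPKM). For 6 leukocyte genes the sums were 5.69 to 6.74 and 4.28 to 6.19, with CD79A at 0. Of these genes 2 were tested, and CD68 was higher (2.15 to 3.33) and CD14 lower (3.71 to 0.942). For 4 endothelial genes the sums were 5.93 to 6.87 and 2.00 to 2.32, nearly all of it CDH5, with KDR at 0. CDH5, the 1 tested gene of that list, was lower (6.17 to 2.03). The part of these markers in the results below was not tested. In bulk RNA, fewer cells of a type and less RNA per cell cannot be told apart. Whether each library had its own culture is not in the labels, and p-values here measure only how these libraries vary, and that variation may be technical.

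MT1X was 2.06-fold lower in metformin-treated cells, while the differences of the other 4 tested metallothioneins did not pass the threshold. MT2A, the main metallothionein of most human epithelial cells, ranked 11th of all listed genes by mean FPKM. It had 615, 741 and 688 FPKM in PBS replicates 1, 2 and 3 and 618, 614 and 644 with metformin. All 3 metformin values lay within or just below the PBS range, so the groups overlapped. The means were 681 ± 63.1 and 625 ± 16.04, a difference of -0.12 on the log2(FPKM + 1) scale (limma adjusted p = 0.178, SE 0.07). The 95% interval of the change was 0.821-fold to 1.03-fold on that scale. Without PBS replicate 1 the difference was -0.19 and passed (limma adjusted p = 0.0207), and with quantile normalization it was 0.21 in the other direction (adjusted p = 0.0259), so no direction is given for MT2A.

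MT1E, an MT1 gene expressed in many epithelia, was the second most abundant member. Its values were 220.0, 248 and 229 FPKM with PBS and 253, 242 and 245 with metformin. Here 2 of the metformin libraries lay within the range of the PBS libraries and 1 lay above it. The means were 232 ± 14.1 and 247 ± 5.70, a difference of 0.09 on the log2(FPKM + 1) scale (limma adjusted p = 0.200, SE 0.05), with a 95% interval of 0.974-fold to 1.16-fold. It passed without PBS replicate 2 (0.13, limma adjusted p = 0.0443).

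MT1X, the third in level and a gene with 4 metal response matches in its promoter window, was the metallothionein that fell. It had 55.9, 60.7 and 47.4 FPKM with PBS and 27.5, 25.1 and 26.9 with metformin. Every metformin library was below every PBS library, and the metformin values were closer together. The mean went from 54.6 ± 6.75 to 26.5 ± 1.28, a difference of -1.01 on the log2(FPKM + 1) scale (limma adjusted p = 0.00018, SE 0.10) with a 95% interval of 0.424-fold to 0.580-fold. Of all tested genes, 4.76% had a lower log2 change. Over the main transcript of 450 bases, the values correspond to about 95.1 to 213 fragments per library, so MT1X rests on far fewer fragments than MT2A (about 3860 to 4770) or MT1E (about 1260 to 1480).

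MT1M and MT1F were near the lower limit of what these libraries resolve. MT1M, an MT1 gene best known from liver, had 3.12, 3.54 and 3.55 FPKM with PBS and 3.69, 3.53 and 2.06 with metformin. Metformin replicate 3, the lowest, sets the sign of its log2 change, which was -0.13 (SE 0.17, limma adjusted p = 0.546) and 0.07 without that library. MT1F had 1.43, 1.39 and 2.41 with PBS and 1.15, 2.21 and 0.738 with metformin. The groups overlapped and each held 1 library well above the other two. The log2 change of MT1F was -0.24 (SE 0.25, limma adjusted p = 0.450), and its 95% interval, 0.557-fold to 1.29-fold on the log2(FPKM + 1) scale, is wide. At this low level the size depends on the pseudocount, being -0.45 (SE 0.43) with 0.01 and -0.09 with 5, and it passed with neither. The change was -0.04 without metformin replicate 3, -0.07 without PBS replicate 3 and -0.48 without metformin replicate 2, and passed in none of these. The FPKM values correspond to about 14.6 to 26.0 fragments for MT1M and 4.36 to 14.7 for MT1F.

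MT1A and MT1G were listed at 0 in all 6 libraries. A single fragment over their main transcripts would be 0.286 to 0.323 FPKM for MT1A and 0.279 to 0.315 for MT1G. The tables list 27781 genes at 0 in every library, among them all 37 genes of mitochondrial DNA, which are strongly transcribed in living cells, and a listed 0 is therefore not taken as absence. The other family genes fared alike: MT1B, MT1H, MT1HL1, MT3 and MT4 were listed at 0 throughout. Of 8 pseudogenes, MT1CP and MT1IP were listed at 0 and the other 6 stayed below 1 FPKM. MT1P1, was listed at 0, 0.0746 and 0 with PBS and had 0.161, 0.881 and 0.617 with metformin, where 1 fragment would be 0.620 to 0.699. MT1XP1 was listed at 0 in the PBS libraries and had 0.239, 0.495 and 0 with metformin. MT1DP, MT1JP, MT1L and MT1P3 were above 0 in 1 to 3 libraries each, with at most 0.784, 0.137, 0.138 and 0.512 FPKM. These amounts are close to or below what 1 fragment would give.

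**Figure D2:**
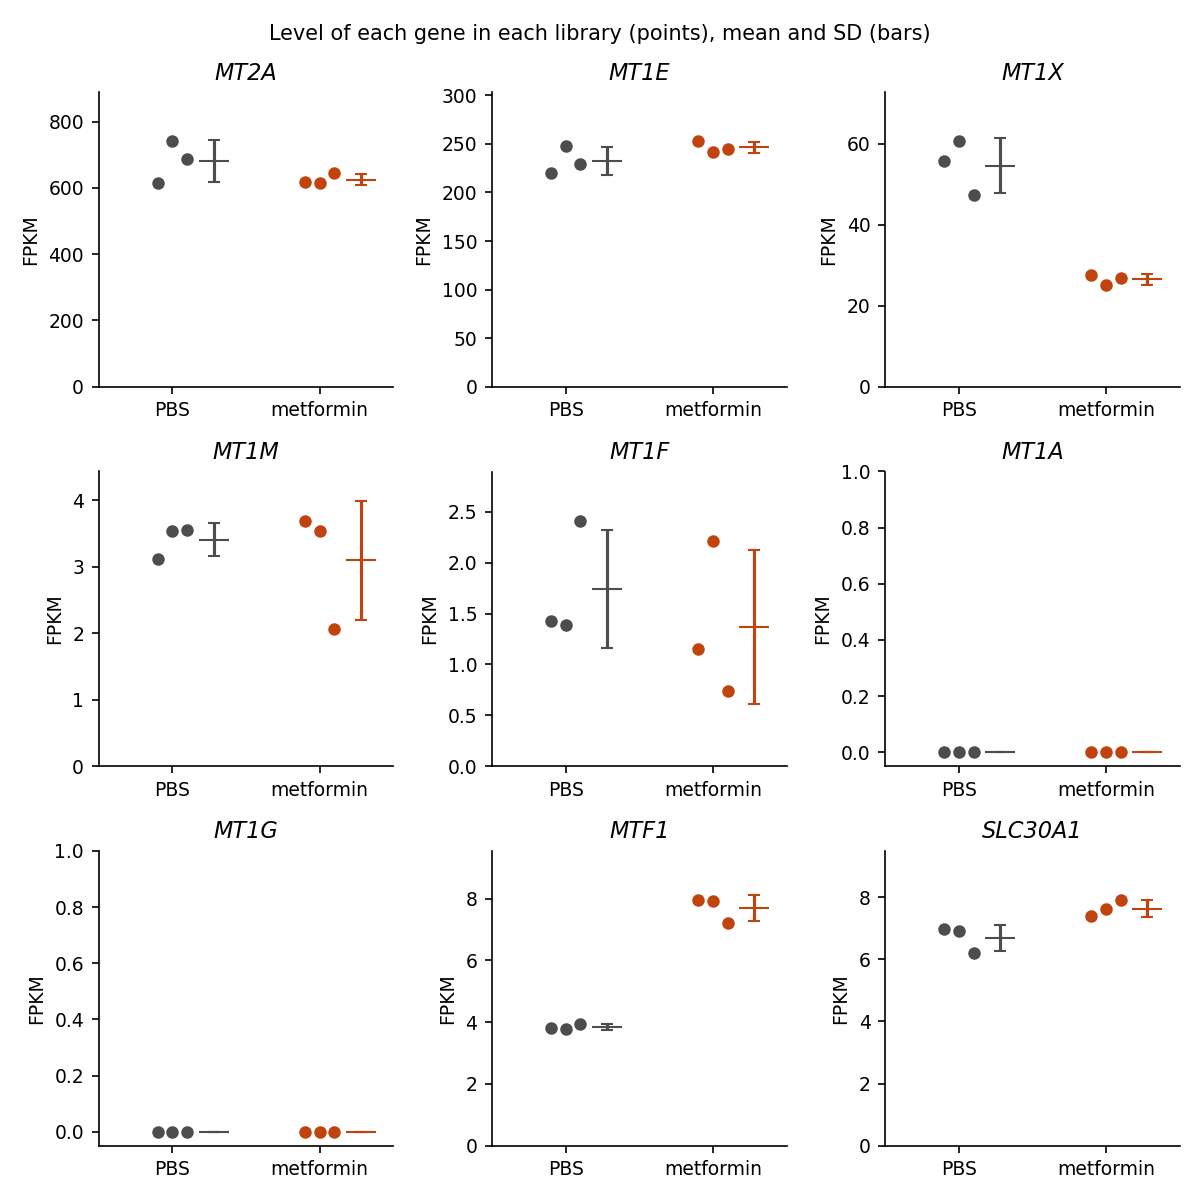
Each panel plots 1 of the 9 genes, with FPKM on a linear axis, 1 point per library (PBS grey, metformin orange) and bars for the mean and SD of 3 libraries. MT1X and MTF1 separate the groups widely, SLC30A1 separates them narrowly (highest PBS 6.97, lowest metformin 7.38), and MT1A and MT1G are at 0.

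The metallothionein pool as a whole was dominated by MT2A in both groups. The 7 members summed to 896, 1054 and 971 FPKM with PBS and 903, 887 and 918 with metformin. The sums overlapped, with means of 974 ± 79.4 and 903 ± 15.8. MT2A made up 70.0% ± 1.14 of the sum with PBS and 69.3% ± 0.85 with metformin. MT1X made up 5.63% ± 0.69 and 2.94% ± 0.11, and MT1E 23.9% ± 0.608 and 27.3% ± 0.651. Relative to MT2A in the same library, MT1X stood at 9.08%, 8.19% and 6.89% with PBS and at 4.46%, 4.08% and 4.18% with metformin. MT1E stood at 35.8%, 33.4% and 33.3% of MT2A with PBS and at 40.9%, 39.4% and 38.1% with metformin. In both ratios the groups did not overlap. Such ratios within a library do not depend on scaling a library by a single factor, and they do not say which member moved. Quantile normalization is not such a scaling. With it the log2 change was 0.16 for MT1E and 0.21 for MT2A, so the higher ratio of MT1E to MT2A depends on the processing. The ratios were not tested between groups. MT1X is the member for which the largest share of 75-base windows is found elsewhere in the family, and the part of shared fragments in its lower value was not tested.

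**Figure D3:**
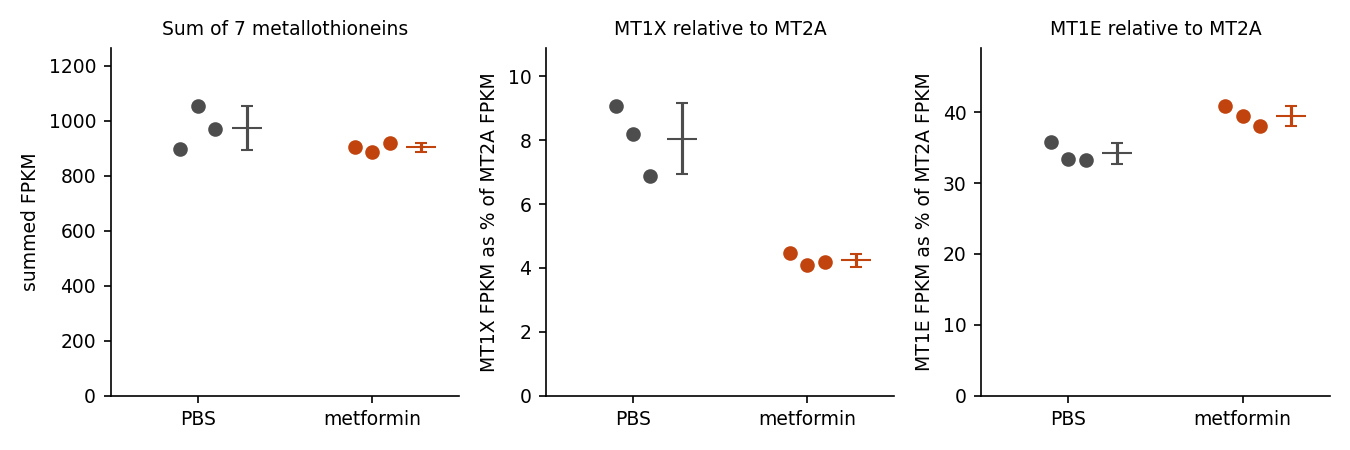
Points are libraries and bars are mean and SD of 3 libraries. The summed FPKM of the 7 metallothioneins overlapped between groups, whereas MT1X as a percent of MT2A was 6.89 to 9.08 with PBS and 4.08 to 4.46 with metformin, and MT1E as a percent of MT2A was 33.3 to 35.8 and 38.1 to 40.9.

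The regulator MTF1 was higher with metformin. MTF1 stood at 3.80, 3.79 and 3.94 FPKM with PBS and at 7.95, 7.93 and 7.20 with metformin. The lowest metformin value was well above the highest PBS value. The mean rose 2.00-fold, from 3.84 ± 0.0822 to 7.70 ± 0.431, a difference of 0.84 on the log2(FPKM + 1) scale (limma adjusted p = 9.44e-05, SE 0.07), and 9.18% of tested genes had a higher log2 change. MTF1 shares no exon bases with another gene and its values correspond to about 236 to 534 fragments per library over a main transcript of 7972 bases. MTF1 is regulated largely by zinc binding and by its entry into the nucleus, neither of which RNA levels measure.

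SLC30A1 encodes ZnT1, the zinc exporter of the plasma membrane and a standard readout of MTF1 activity. It had 6.97, 6.90 and 6.20 FPKM with PBS and 7.38, 7.60 and 7.90 with metformin. The groups did not overlap, but the gap between them was small. The mean went from 6.69 ± 0.426 to 7.63 ± 0.260 (1.14 times the PBS mean), a difference of 0.17 on the log2(FPKM + 1) scale with an SE of 0.07, and did not pass the threshold (limma adjusted p = 0.0793). Its 95% interval ran from 1.00-fold to 1.26-fold. Both this interval and that of MTF1, 1.60-fold to 2.01-fold, are on the log2(FPKM + 1) scale, which gives smaller folds than FPKM itself.

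Few of the zinc transporters passed the test, where 56.2% of all tested genes passed, 31.0% higher and 25.2% lower. Most, but not all, proteins of the SLC30 family move zinc out of the cytosol into vesicles or out of the cell. The genes of this family and TMEM163 gave 5 tested genes of 11, SLC30A1 among them, with 0 higher and 1 lower. Their median log2 change was 0.09, against 0.06 over all tested genes. SLC30A9, which encodes a mitochondrial zinc transporter, had 18.8, 18.4 and 18.7 FPKM with PBS and 12.5, 15.4 and 13.6 with metformin. It fell 1.35-fold, a difference of -0.41 on the log2(FPKM + 1) scale (limma adjusted p = 0.00475, SE 0.08), and the groups did not overlap. SLC30A5 and SLC30A7, which load zinc into the secretory pathway with SLC30A6, had 8.49 ± 0.508 against 9.07 ± 0.536 and 6.99 ± 0.168 against 7.70 ± 0.271 FPKM, and neither passed. SLC30A6 ranged from 4.48 to 10.4 within the PBS group, so its change could not be resolved.

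Genes of the SLC39 family, which bring zinc into the cytosol, gave 11 tested of 14, with 0 higher and 2 lower, and a median log2 change of -0.24. These counts compare with 31.0% higher and 25.2% lower over all tested genes. SLC39A10 encodes ZIP10, an importer of the plasma membrane that MTF1 is known to repress when zinc is plentiful. It had 3.88, 3.67 and 3.85 FPKM with PBS and 1.74, 1.18 and 1.18 with metformin. It fell 2.78-fold without overlap of the groups, a difference of -1.03 on the log2(FPKM + 1) scale (limma adjusted p = 0.000358, SE 0.11). At this low level the size depends on the pseudocount, being -0.47 with a pseudocount of 5 and -1.49 with 0.01, and it passed with both. SLC39A3, another importer, fell 1.52-fold from 5.28 ± 0.361 to 3.47 ± 0.206 (limma adjusted p = 0.00193). SLC39A7, which releases zinc from the endoplasmic reticulum, had 52.7 ± 2.16 and 57.8 ± 2.01 and did not pass (adjusted p = 0.0700). For 2 abundant importers 1 metformin library stood apart: SLC39A1 had 40.0, 16.3 and 43.5 FPKM with metformin against 51.1 to 54.1 with PBS, and SLC39A14 had 37.6, 36.0 and 15.3 against 20.4 to 22.8. Neither passed (limma adjusted p = 0.0953 and 0.419), and their intervals were wide, 0.335-fold to 1.03-fold for SLC39A1 and 0.741-fold to 2.11-fold for SLC39A14. SLC39A1 shares 2061 exon bases on the same strand with AL358472.7, which has no value here. The part of this overlap was not tested.

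**Figure D4:**
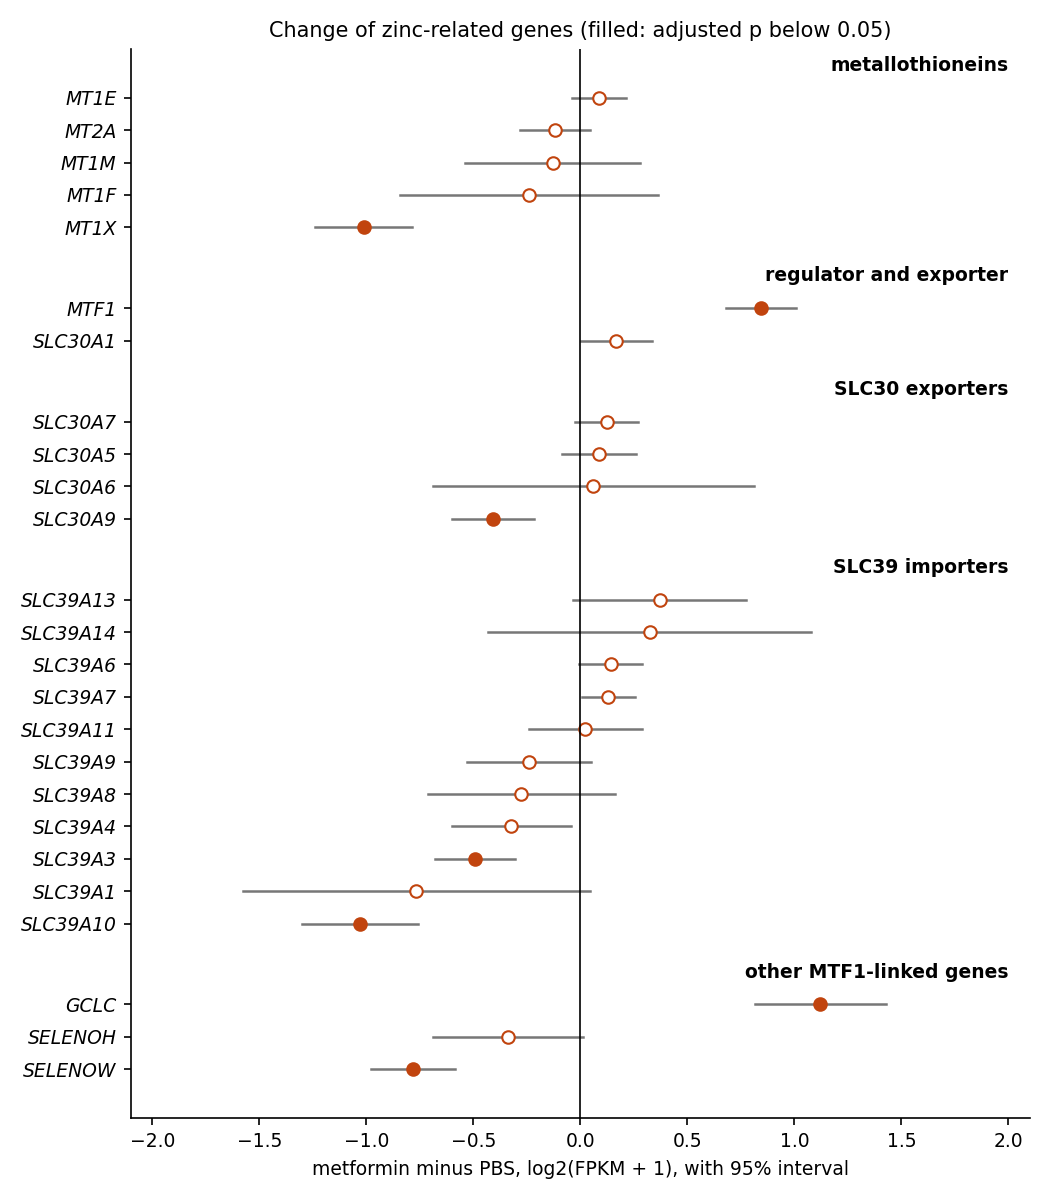
The horizontal axis is the log2 change on the log2(FPKM + 1) scale (above 0 is higher with metformin), with points for the estimate, lines for the 95% interval of the limma fit and filled points for genes that passed the threshold. MT1X, SLC39A10, SLC39A3, SLC30A9 and SELENOW lie below 0 and MTF1 and GCLC above it, while MT2A, MT1E and SLC30A1 lie close to 0.

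A further list of genes tied to MTF1 held members that passed in both directions. It has 6 genes, of which 4 were tested, with 1 higher, 2 lower and a median log2 change of -0.56. SLC39A10 is in this list too and is 1 of the 2 that were lower, so outside the transporter families 1 was higher and 1 lower of 3 tested. Over all tested genes 31.0% were higher and 25.2% lower. GCLC, the catalytic subunit that starts glutathione synthesis, rose from 7.03, 5.93 and 8.82 FPKM to 16.8, 17.7 and 15.9, a 2.31-fold difference (log2 change 1.12, SE 0.13, limma adjusted p = 0.000414). SELENOW, a small selenoprotein, had 4.61, 5.41 and 4.80 with PBS and 2.56, 2.45 and 2.34 with metformin. It fell 2.02-fold (log2 change -0.78, SE 0.08, limma adjusted p = 0.000295). SELENOH had 8.58 ± 1.36 and 6.60 ± 1.26 and did not pass (adjusted p = 0.0915), and PGF and SLC40A1 were under the level filter.

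Genes known to respond to cadmium and other heavy metals gave 7 higher and 2 lower of 10 tested. Over all tested genes 31.0% were higher and 25.2% lower. The median log2 change of the list was 0.80. GCLC is counted here as well, and most of those that rose are also targets of the oxidant-sensing factor NRF2. HMOX1, the haem-degrading enzyme that cadmium strongly induces, rose 4.21-fold, from 2.35, 2.49 and 2.49 FPKM to 11.0, 10.4 and 9.44 (log2 change 1.71, SE 0.08, limma adjusted p = 9.11e-06). SLC7A11, the cystine importer, rose 3.91-fold from 5.00 ± 0.401 to 19.5 ± 1.34. TXNRD1, thioredoxin reductase, rose 2.74-fold from 48.7 ± 11.5 to 133 ± 35.5. The inducible heat shock genes HSPA1A and HSPA1B, which heavy metals also induce, were the 2 that fell, to 106 ± 2.61 from 196 ± 3.68 and to 117 ± 4.81 from 202 ± 4.77. They were named after their values were seen, and as near-identical copies they can share fragments.

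Of the other transcription factors known to act at metallothionein promoters, 4 of 6 were higher and 0 lower, and their median log2 change was 0.47. Among all tested genes these shares were 31.0% and 25.2%. NFE2L2, which encodes NRF2, rose 2.61-fold from 7.39 ± 0.621 to 19.3 ± 0.654 (limma adjusted p = 2.42e-05), with no overlap between groups. It shares exon bases with AC079305.1 and AGPS on the opposite strand, which averaged 12.8 and 17.3 FPKM. NR3C1, the glucocorticoid receptor, rose 1.53-fold to 9.73 ± 0.483, and the E-box factors USF1 and USF2 rose 1.42-fold and 1.40-fold. Glucocorticoid-induced genes, a class to which MT2A and MT1X also belong, divided: 4 of 9 tested were higher and 5 lower, and their median log2 change was -0.65. The share passing over all tested genes was 56.2%. DUSP1, a MAP kinase phosphatase, rose 6.22-fold from 4.72 ± 0.347 to 29.3 ± 1.60, and TSC22D3, which encodes GILZ, 2.64-fold from 2.40 ± 0.315. GLUL, glutamine synthetase, fell 3.20-fold from 30.6 ± 3.55 to 9.56 ± 1.47, and the kinase gene SGK1 fell 3.07-fold from 13.4 ± 2.60.

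Copper handling genes gave 2 higher and 3 lower of 8 tested, and their median log2 change was -0.15. With 56.2% of all tested genes passing, this count is not read as a result about copper handling. SOD1, the copper and zinc superoxide dismutase, fell 1.48-fold, from 139, 149 and 143 FPKM to 95.3, 98.7 and 97.7 (log2 change -0.56, SE 0.04, limma adjusted p = 7.8e-05). Its copper chaperone gene CCS fell 1.42-fold from 11.5 ± 1.30, and ATOX1, the chaperone that serves the copper pumps, fell 1.61-fold from 7.47 ± 0.880 to 4.64 ± 0.388. ATOX1 shares 130 exon bases with G3BP1 on the opposite strand, which averaged 32.7 FPKM. SLC31A2, a relative of the copper importer, rose 1.19-fold to 12.0 ± 0.859 (limma adjusted p = 0.0271), a call that did not hold without PBS replicate 2 (adjusted p = 0.0730), PBS replicate 3 (0.0686) or metformin replicate 1 (0.0773), nor with median-of-ratios scaling (0.0644). It shares 1579 exon bases with FKBP15 on the opposite strand, which averaged 11.3 FPKM.

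The protein-coding genes next to the cluster were added to the description after the lists were written. Of 8 within 250 kb of the metallothionein genes, 6 were tested, with 1 higher and 2 lower. As 56.2% of all tested genes passed, these calls are not read as a pattern of the region. NUDT21, an mRNA 3′ end processing factor on the MT2A side, fell 1.95-fold from 45.5 ± 1.45 to 23.3 ± 0.670 FPKM. NUP93, a nuclear pore gene that begins at 56730105 beyond MT1X, fell 1.69-fold from 9.02 ± 0.306 to 5.32 ± 0.158. HERPUD1, an endoplasmic reticulum stress gene farther on, rose 1.72-fold from 5.24 ± 0.266 to 9.01 ± 0.748. BBS2 and OGFOD1, nearest the cluster on the other side, stood at 3.03 ± 0.182 against 2.92 ± 0.145 and 10.3 ± 0.329 against 10.4 ± 0.692, and neither passed.

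The genes whose levels ran closest to the summed metallothionein level over the 6 libraries were AC113208.3, AL049839.2 and SSR4. Their Pearson correlations, on log2 values, were 0.985, 0.985 and 0.981. They are the 3 highest among the tested genes, members and pseudogenes left out. With only 6 libraries, values this high can come from picking the highest alone, and shared regulation was not tested. All 3 were highest in PBS replicate 2, the library in which MT2A was highest too. SSR4, a subunit of the translocon-associated complex, had 4.90, 8.11 and 6.21 FPKM with PBS and 5.38, 4.73 and 5.00 with metformin. None of the 3 passed the test between groups (limma adjusted p = 0.0798, 0.112 and 0.177), and AL049839.2 was listed at 0 in 4 of the 6 libraries.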

How the data were processed

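Values were deposited as FPKM, 1 for every gene in each library, per the file headers. Genome build GRCh38 is given by the submitters' processing notes. Not given in the sources used here were the aligner, quantifier, strand setting and annotation release. Symbols were taken from GENCODE 29 by identifier without version (57980 of 58243 named). Libraries were grouped by title, 3 per group. Genes averaging at least 1 FPKM were fitted as log2(FPKM + 1) with limma 3.58.1 in R 4.3.3 (eBayes with trend, group only), two-sided, with Benjamini-Hochberg adjustment. The fit was tested on simulated data. The members and lists were chosen with earlier results of these data known.

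The rule for named genes takes all 9 members, other family genes above 0, up to 4 passing genes of each list with the largest change, and the 3 genes most like the summed level. Other genes, among them those that did not pass, HSPA1A, HSPA1B, the markers of cell types and the cluster's neighbours, were named after their values were seen. Of 111 listed symbols, SCO2 matched 2 identifiers and was left out. Depth was estimated from single-transcript genes over 300 exonic bases: 418 to 507 low values per library lay within 3% of the step of 1 fragment, and 178 to 214 within 3% of 0.5 of it. Fragment numbers use main transcript lengths and are approximate. Coding sequences were aligned with Biopython 1.88, and promoters came from RefSeq.

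Alternatives were other pseudocounts, level filters and scalings, a replicate block, other eBayes settings and each library left out.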

Additional observations from a re-analysis of the deposited data

How the results depend on the processing

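MT1X was lower and MTF1 higher, both past the threshold, under all 18 alternatives, with log2 changes of -1.11 to -0.92 for MT1X and 0.52 to 1.00 for MTF1. SLC30A1 passed under 0 of 18, with adjusted p between 0.0553 and 0.244. MT2A passed under 2: without PBS replicate 1 (log2 change -0.19, adjusted p = 0.0207) and, in the opposite direction, with quantile normalization (0.21, adjusted p = 0.0259). MT1E passed without PBS replicate 2 (0.13, adjusted p = 0.0443) and with quantile normalization (0.16, adjusted p = 0.0353), so 4 members were called under quantile normalization against 2 in the reported fit. Without single libraries the count of called members was 2 to 3. The cause was not tested. MT1M reversed to 0.0672 without metformin replicate 3, and without single libraries it lay between -0.241 and 0.0672. A pseudocount of 5 gave smaller log2 changes that still passed for MTF1 (0.52), HMOX1 (1.04), TSC22D3 (0.61), SELENOW (-0.42), SLC39A3 (-0.28) and ATOX1 (-0.37). SLC30A1 was at 0.10 with quantile normalization and MT1E at 0.03 with median-of-ratios scaling. Over all genes, 7549 were called, and 4738 when a mean of 5 FPKM was required, where only 7388 were tested. Leaving out 1 library gave 6621 to 6910. The log2 ratio of the summed metallothionein level was -0.11, and -0.17 to -0.05 over the alternatives run for the sum. Of these, the scalings and left-out libraries were added after the data were seen. Quantile normalization, with which MT2A was at 0.21 and MT1E at 0.16, was not run for the sum. No direction is therefore given for the summed level.

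Whether the replicate numbers pair the cultures is not in the labels. Deviations of same-numbered libraries correlated at -0.000355, 0.0304 and -0.0105, which cannot show how the cultures were set up. With a replicate block 7139 genes were called, MT1X and MTF1 among them. Depth limits MT1F and MT1M, which rest on few fragments.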
